A study of Homo sapiens with 6 samples.

Results

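Proteoglycans are proteins that carry long, negatively charged sugar chains, and the genes described here encode 10 of their core proteins in the human melanoma cell line A375. They were chosen by name, and all 10 were found among the 20851 genes of the deposited count table. They comprise the syndecans SDC1, SDC2, SDC3 and SDC4, the glypicans GPC1, GPC4 and GPC6, the melanoma-associated chondroitin sulfate proteoglycan CSPG4, and the matrix proteoglycans VCAN (versican) and HSPG2 (perlecan). RNA-seq was done on 3 libraries of A375RIPK4.KO cells, labelled RIPK4 knockout, and on 3 of A375neg cells, labelled GFP control. By the study's methods, both sublines received a lentiviral CRISPR/Cas9 guide, directed against RIPK4 in A375RIPK4.KO and nontargeting in A375neg, and were grown without further treatment. The knockout libraries came from 1 clone (clone #1), so the loss of RIPK4 and differences between clones cannot be told apart in any value below. The libraries are described as biological replicates, but no source used here says how the cultures were separated.

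Syndecans span the membrane and present heparan sulfate to growth factors and matrix, while their short cytoplasmic tails connect to the cytoskeleton. Glypicans are held at the cell surface by a lipid anchor and modulate growth factor and morphogen signalling. CSPG4 is a membrane protein known as a melanoma antigen, versican binds hyaluronan in loose matrix, and perlecan is a large heparan sulfate proteoglycan of basement membranes. The sugar chains start from a common linker, are elongated and sulfated in the Golgi, and need a supply of activated sulfate, and core proteins can be released from the surface by metalloproteases.

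The RefSeq promoter windows (GRCh38.p14, 250 bases before to 50 after the annotated start) of 3 genes whose transcripts changed are shown. SDC2, which changed as well, had no window that matched its symbol. Capitals mark matches, on either strand, to the GC box (GGGCGG) or to the kB motif bound by NF-kB. SDC4 lies at chr20:45348375-45348674 on the minus strand, GPC4 at chrX:133415440-133415739 on the minus strand and VCAN at chr5:83471494-83471793 on the plus strand, each written 5′ to 3′.
SDC4: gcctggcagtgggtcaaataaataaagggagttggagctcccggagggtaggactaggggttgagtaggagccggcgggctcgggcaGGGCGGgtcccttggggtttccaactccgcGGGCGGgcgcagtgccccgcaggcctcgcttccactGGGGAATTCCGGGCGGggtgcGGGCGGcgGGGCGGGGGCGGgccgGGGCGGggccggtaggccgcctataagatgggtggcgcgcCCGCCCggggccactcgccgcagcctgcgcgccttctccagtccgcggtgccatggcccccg
GPC4: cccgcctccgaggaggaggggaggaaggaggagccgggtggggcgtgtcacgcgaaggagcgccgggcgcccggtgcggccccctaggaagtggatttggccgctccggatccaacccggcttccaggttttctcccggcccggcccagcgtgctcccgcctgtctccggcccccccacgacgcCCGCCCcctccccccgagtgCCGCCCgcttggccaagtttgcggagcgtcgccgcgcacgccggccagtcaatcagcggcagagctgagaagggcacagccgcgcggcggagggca
VCAN: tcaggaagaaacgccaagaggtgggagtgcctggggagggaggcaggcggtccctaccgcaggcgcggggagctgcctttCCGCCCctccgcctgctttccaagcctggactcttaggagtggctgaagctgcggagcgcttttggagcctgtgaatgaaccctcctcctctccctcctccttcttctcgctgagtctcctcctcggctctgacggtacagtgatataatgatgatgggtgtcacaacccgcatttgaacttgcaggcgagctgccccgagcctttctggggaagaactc
The SDC4 window held 8 GC boxes and 1 kB match, which ends directly before a GC box without overlapping it. Members that were not called held these motifs too, with 10 GC boxes in HSPG2, 6 in SDC3, and a kB match in 1 of the windows of SDC1. GPC4 held 2 GC boxes and VCAN 1, and neither held a kB match. Of all 35116 RefSeq promoter windows of the same length, 45.0% held a GC box and 11.3% a kB match. The GC content was 74.0% in SDC4, 74.7% in GPC4 and 60.3% in VCAN, beside a median of 58.7% over all windows. None of the 3 windows held the AP-1 motif TGANTCA, the TEAD motif GGAATG, the TCF motif CTTTGA or the E-box CACGTG, which were found in 7.71%, 14.0%, 12.9% and 7.26% of all windows.

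Library totals ranged from 21882863 to 26694140 gene counts, and a gene with 0 counts could still be present at 3 counts, or 0.112 to 0.137 CPM (counts scaled to library size). These limits cover counting error only. RIPK4 itself had 319, 368 and 404 raw counts in A375neg and 42, 51 and 61 in A375RIPK4.KO. Its log2 fold change was −2.69 ± 0.16 (SE, adjusted p = 1.06e-06 in the edgeR fit across all genes), so its transcript was reduced but still present. Of the melanoma line markers, VIM had 100392 to 124981 raw counts, PMEL had only 3 to 22, and MLANA, TYR and DCT were not among the genes listed. SOX10 had 8844 to 10056 raw counts in A375neg and 7448 to 7858 in A375RIPK4.KO. Of the 6 markers listed, 3 were lower at an adjusted p under 0.05, with log2 fold changes of −0.89 for S100B (called), −0.44 for MITF and −0.20 for SOX10. Summed levels of marker lists for other cell types were 0 to 2.01 CPM for leukocytes (3 of 5 genes listed, PTPRC at 0 to 3 raw counts), 53.3 to 75.2 for keratinocytes (3 of 5), 9.79 to 12.6 for fibroblasts (5 of 6) and 12.2 to 19.6 for endothelial cells (4 of 4). These sums were lower in A375RIPK4.KO for the first 3 lists and higher for the endothelial one. LYZ, the 1 leukocyte marker tested, had 36 to 38 raw counts in A375neg and 0 to 13 in A375RIPK4.KO. In the keratinocyte list KRT14 fell (461 to 607 and 121 to 158), while KRT10 did not change (log2 fold change −0.005). Of 4 tested fibroblast markers, LUM alone was called, lower. The endothelial sum was mostly KDR, which rose (279 to 374 and 391 to 463 raw counts), while PECAM1 fell (21 to 24 and 4 to 5) and CDH5, too low to be tested, had 7 to 14 and 0 to 4. The part of these markers in the results was not tested. A375RIPK4.KO replicate 2 stood apart, with a chi-square per gene of 20.5 and 24.6 against the other libraries of its group, where the other pairs within groups had 6.39 to 9.03. In this library, the median count of the longest genes ran lower than in the rest of its group.

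All 10 genes had enough counts to be tested among 14443 genes. A gene was called changed at an adjusted p under 0.05 (edgeR's quasi-likelihood test, Benjamini-Hochberg over all genes tested) and a change of 1.5-fold or more, up or down. By these limits 4 of the 10 changed: SDC2, GPC4 and VCAN rose and SDC4 fell, where 9.22% of all genes tested were called, 4.47% higher and 4.75% lower. The adjusted p alone was under 0.05 for 5 of the 10, with CSPG4 in addition, beside 17.6% of all genes (8.89% higher and 8.73% lower). The normalized counts of both groups did not overlap for 6 of the 10, these 5 and GPC1, beside 36.5% of all genes. The median log2 fold change of the 10 was 0.14, and that of all genes tested was −0.005. The genes were chosen with earlier results of these libraries known, so these counts only describe the list. Because the cells were measured in bulk, fewer cells with a transcript and less of it per cell cannot be told apart.

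**Figure D1:**
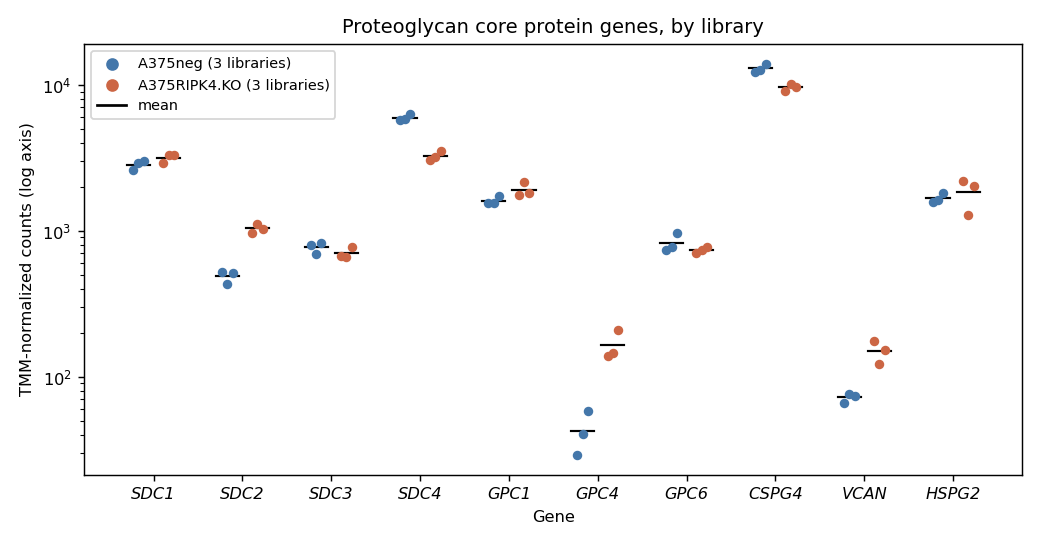
TMM-normalized counts (log axis) of the 10 core protein genes in each library, with points for single libraries and a bar for the group mean. The groups do not overlap for SDC2, SDC4, GPC1, GPC4, CSPG4 and VCAN, and 1 A375RIPK4.KO point of HSPG2 lies below all A375neg points while the other two lie above them.

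Among the syndecans, the most abundant one fell and one of the rarest rose. SDC4, the broadly expressed syndecan of focal adhesions (chr20:45325288-45348424, minus strand), had 5775, 6314 and 6619 raw counts in A375neg and 2802, 3082 and 3495 in A375RIPK4.KO. Every A375neg library was above every A375RIPK4.KO library, and the normalized count went from 5955 ± 277 (SD, n = 3) to 3274 ± 246 (SD, n = 3). The log2 fold change was −0.86 ± 0.07 (SE, adjusted p = 1.03e-05), which leaves 55.0% of the A375neg level. SDC4 is in a list of lower genes that the study drew from these same libraries, so that list is no independent evidence. SDC2, a syndecan of mesenchymal cells (chr8:96493813-96611790, plus strand), had 526, 467 and 543 raw counts in A375neg and 889, 1070 and 1014 in A375RIPK4.KO. The groups were again separate, with 490.3 ± 52.3 (SD, n = 3) and 1039 ± 73.2 (SD, n = 3) normalized counts. SDC2 was 2.12-fold higher (log2 fold change 1.08 ± 0.10 SE, adjusted p = 2.12e-05).

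The remaining syndecans overlapped between the groups. SDC1, the main syndecan of epithelia (chr2:20200797-20225475), had 2623, 3145 and 3174 raw counts in A375neg and 2657, 3148 and 3239 in A375RIPK4.KO. Its log2 fold change of 0.15 had a 95% interval of −0.02 to 0.32 (adjusted p = 0.211), so a rise of up to 1.25-fold is within the interval. SDC3, known best from the nervous system (chr1:30869466-30909735), had 798, 756 and 864 raw counts in A375neg and 613, 634 and 764 in A375RIPK4.KO. Its log2 fold change was −0.13, with an interval of −0.35 to 0.08 (adjusted p = 0.394). SDC1 and SDC3 did not pass the test in any of the 13 alternative fits.

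Of the glypicans, only the rarest of the 3 was called. GPC4, which acts on growth factor signalling (chrX:133300103-133415489, minus strand), had 29, 44 and 61 raw counts in A375neg and 126, 140 and 206 in A375RIPK4.KO. The lowest A375RIPK4.KO library was more than 2 times the highest A375neg library, although the counts spread widely within each group. Normalized counts were 42.5 ± 14.5 (SD, n = 3) and 164.2 ± 38.9 (SD, n = 3), a 3.86-fold rise with a 95% interval of 2.54 to 5.86 (log2 fold change 1.95 ± 0.27 SE, adjusted p = 0.000492). Leaving out single libraries moved this log2 fold change between 1.74 and 2.23. GPC1, a widely expressed glypican (chr2:240435663-240468076), had 1552, 1687 and 1823 raw counts in A375neg and 1599, 2056 and 1781 in A375RIPK4.KO. Its normalized counts, 1552 to 1728 and 1748 to 2146, lay next to each other without overlap, and it was not called (log2 fold change 0.24, 95% interval 0.04 to 0.43, adjusted p = 0.0942). Leaving out single libraries moved the adjusted p of GPC1 between 0.0548 and 0.274. GPC6, whose gene spans a long stretch of chromosome 13 (chr13:93216529-94408020), had 744, 840 and 1017 raw counts in A375neg and 649, 712 and 758 in A375RIPK4.KO. Its groups overlapped after normalization, and its log2 fold change of −0.16 had an interval of −0.39 to 0.07 (adjusted p = 0.342).

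CSPG4 was the member with the most counts (chr15:75674322-75713466, minus strand). It had 12217, 13788 and 14762 raw counts in A375neg and 8329, 9782 and 9482 in A375RIPK4.KO, with no overlap of the groups. Normalized counts were 12969 ± 918 (SD, n = 3) and 9643 ± 554 (SD, n = 3), a 1.35-fold lower level (log2 fold change −0.43 ± 0.07 SE, adjusted p = 0.00208). This exceeded the replicate spread but stayed short of the 1.5-fold limit, and this held in each of the 13 alternative fits.

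VCAN (chr5:83471744-83582302, plus strand) was rare in both groups and rose. It had 66, 83 and 78 raw counts in A375neg and 160, 118 and 151 in A375RIPK4.KO, and each A375RIPK4.KO library exceeded each A375neg library. The change was 2.08-fold, with a 95% interval of 1.55 to 2.80 (log2 fold change 1.06 ± 0.19 SE, adjusted p = 0.00289). Its lowest A375RIPK4.KO value was that of replicate 2.

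HSPG2 (chr1:21822244-21937310, minus strand) was the one member whose result turned on a single library. Raw counts were 1583, 1759 and 1918 in A375neg and 2016, 1229 and 2009 in A375RIPK4.KO, so that replicate 2 of A375RIPK4.KO was the lowest of all 6 libraries and replicates 1 and 3 were the highest. With all 6 libraries the log2 fold change was 0.14 (95% interval −0.36 to 0.63, adjusted p = 0.707). Without A375RIPK4.KO replicate 2 it was 0.34 (interval 0.20 to 0.49, adjusted p = 0.00115), a 1.27-fold difference under the 1.5-fold limit, in a fit where 21.8% of 14931 genes had an adjusted p under 0.05. Without A375RIPK4.KO replicate 1 it was −0.01. The other 9 members kept their side of both limits when that library was left out.

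When the tested genes were divided into 10 equal classes by exonic length, HSPG2 and VCAN belonged to the longest class, at 18104 and 14831 bases. In A375RIPK4.KO replicate 2, HSPG2 was 0.72 and VCAN 0.40 lower on the log2 scale than the mean of the other two libraries of the group. CSPG4 and GPC1, in the eighth and the seventh class, were instead 0.13 and 0.27 higher there. In the same classes SDC3 and GPC6 were at −0.12 and 0.009, beside class medians of −0.075 and −0.030. The median gene of the longest class was 0.17 lower and that of the shortest class 0.22 higher in this library, so HSPG2 and VCAN departed further than their class did, and the median of any class in any other library departed by about 0.13 at most. When a smooth trend on gene length was removed from every library, the log2 fold change of HSPG2 was 0.16 (adjusted p = 0.462) and that of VCAN 1.09 (adjusted p = 0.00105).

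**Figure D2:**
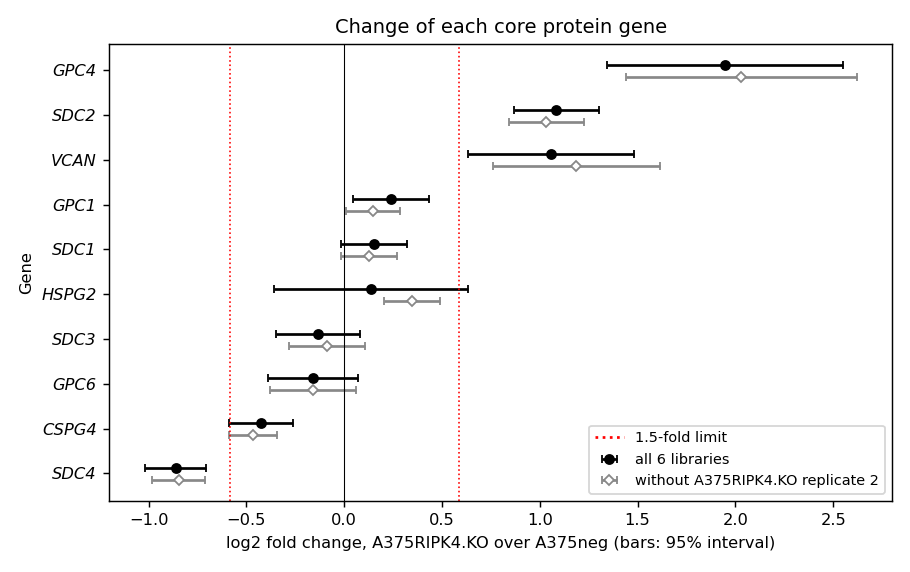
Log2 fold change of each core protein gene in A375RIPK4.KO over A375neg with its 95% interval, for all 6 libraries (filled circles) and without A375RIPK4.KO replicate 2 (open diamonds), with dotted lines at the 1.5-fold limit. SDC4 lies left of the limits and SDC2, GPC4 and VCAN right of them in both fits, and HSPG2 moves from 0.14 to 0.34 with a narrower interval.

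**Figure D3:**
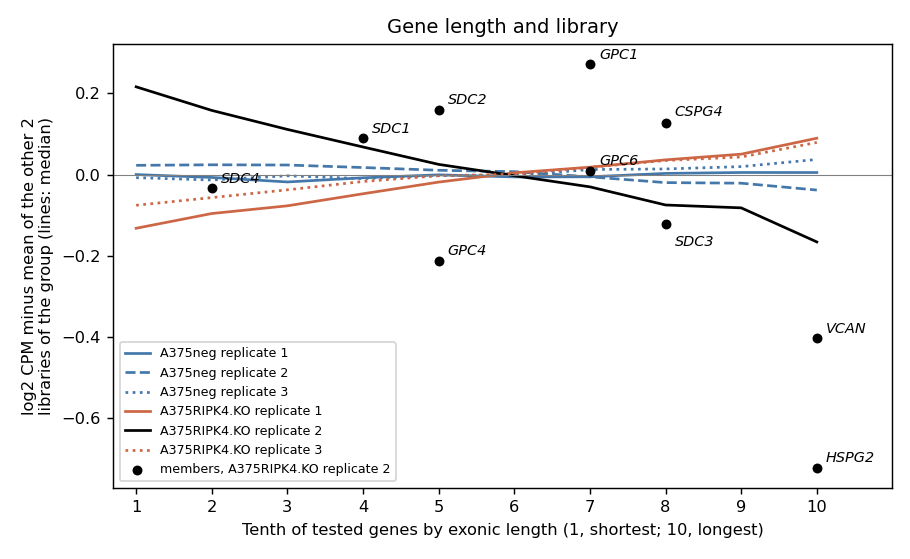
Median difference in log2 CPM between each library and the mean of the rest of its group (vertical axis), for 10 equal classes of the tested genes ordered by exonic length (horizontal axis). Black points are the 10 core protein genes in A375RIPK4.KO replicate 2, where the median falls from 0.22 to −0.17 and HSPG2 reaches −0.72.

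Levels of different genes were compared per length, as RPKM (counts scaled to exonic length and to normalized library size). In A375neg the order was SDC4 at 92.9 ± 4.32 RPKM (SD, n = 3), CSPG4 at 63.8 ± 4.51, SDC1 at 32.2 ± 2.25 and GPC1 at 10.1 ± 0.63, each separate from the next over its 3 libraries. GPC6, SDC3, SDC2 and HSPG2 followed at mean levels of 5.21, 4.45, 4.41 and 3.77 RPKM, and neighbours among these 4 overlapped. GPC4 and VCAN were far below, at 0.35 ± 0.12 and 0.20 ± 0.02 RPKM (SD, n = 3). In A375RIPK4.KO, SDC4 at 51.1 ± 3.83 and CSPG4 at 47.4 ± 2.72 RPKM (SD, n = 3) overlapped, whereas their ranges had been apart in A375neg. SDC2, at 9.33 ± 0.66 RPKM (SD, n = 3), lay apart from GPC1 above it and from GPC6 below it. The levels of GPC4 and VCAN, 1.35 ± 0.32 and 0.41 ± 0.07 RPKM (SD, n = 3), were still the lowest of the 10. The place of SDC3 depends on the length assigned to it, since its mean in A375neg was 19.9 RPKM, the fourth highest, with the longest transcript that has a RefSeq identifier. With such lengths GPC1 was also more than 1.5 times higher in both groups, at 17.7 and 20.8 RPKM in place of 10.1 and 11.9.

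As shares of their family, which do not depend on how libraries are scaled, the syndecans differed between the groups in every library. SDC4 made up 69.8%, 69.0% and 69.2% of the summed syndecan RPKM in A375neg and 51.2%, 49.5% and 52.0% in A375RIPK4.KO. SDC1 made up 24.1% ± 0.98 in A375neg and 35.7% ± 0.94 in A375RIPK4.KO (SD, n = 3), although its own level was not called changed. SDC2 went from 3.29% ± 0.36 to 9.32% ± 0.61 (SD, n = 3). The RPKM ratio of SDC2 to SDC4 was 0.0474 ± 0.0049 in A375neg and 0.183 ± 0.016 in A375RIPK4.KO (SD, n = 3), 3.86 times higher. The summed syndecan level was lower in each A375RIPK4.KO library, at 134.0 ± 6.47 and 100.3 ± 6.52 RPKM (SD, n = 3). For each of these shares, the ratio and the sum, the two-sided exact permutation test gave p = 0.1, which is the lowest value available with 3 libraries in each group.

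The glypican total was 14.6 to 17.4 RPKM in A375neg and 16.5 to 19.3 RPKM in A375RIPK4.KO, and these ranges overlapped (exact permutation test, p = 0.2). Within it GPC1 held 62.3% to 66.3% in A375neg and 63.3% to 69.5% in A375RIPK4.KO, with overlap (exact permutation test, p = 0.5). GPC4 went from 1.63% to 2.74% in A375neg to 6.22% to 9.61% in A375RIPK4.KO, and GPC6 from 32.0% to 35.0% down to 24.3% to 27.1% (exact permutation test, p = 0.1 for each). With RefSeq transcript lengths the mean share of GPC1 was 76.2% in A375neg and 77.5% in A375RIPK4.KO, and the difference in the share of GPC4 was 3.57 percentage points in place of 5.36.

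**Figure D4:**
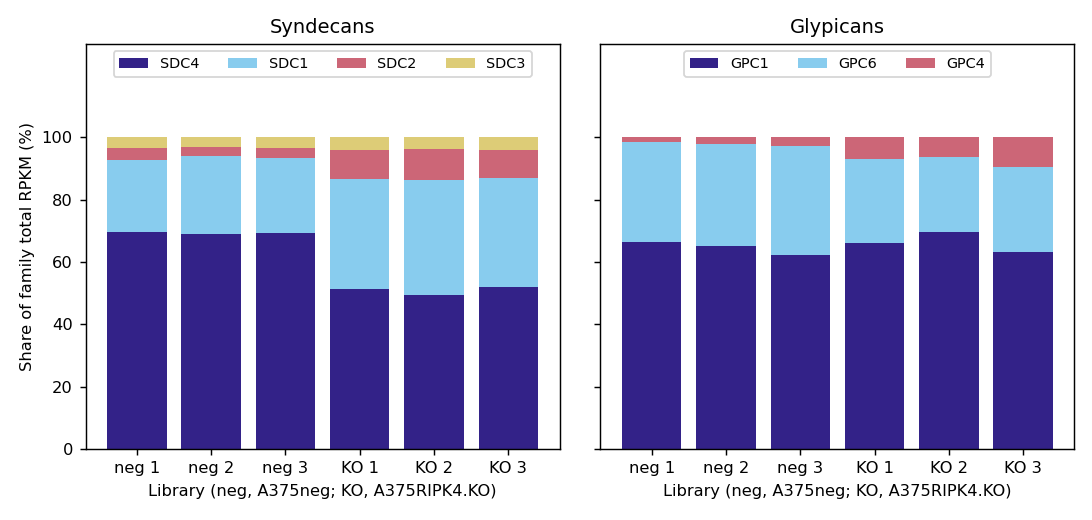
Share of each syndecan (left) and glypican (right) in the summed RPKM of its family, 1 stacked bar per library. SDC4 takes 69.0% to 69.8% in the A375neg bars and 49.5% to 52.0% in the A375RIPK4.KO bars, and GPC4 at most 2.74% and at least 6.22%.

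Genes that build, modify and cut these molecules were described from 10 lists with 131 genes, of which 102 were tested. Of these, 20 were called, 7 higher and 13 lower, a share of 19.6% beside 9.22% of all genes, with a median log2 fold change of −0.09. Members and lists were chosen with results known, so the share is a description.

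Among 18 tested core proteins outside the 10, 3 rose and 3 fell (median log2 fold change 0.06), a share of 33.3% beside 9.22% of all genes. ESM1, the secreted dermatan sulfate proteoglycan endocan, had 1684, 1576 and 1911 raw counts in A375neg and 5160, 4634 and 5464 in A375RIPK4.KO, with a log2 fold change of 1.70 ± 0.09 (SE, adjusted p = 4.67e-07). SRGN (serglycin), which is stored in granules or secreted, rose from 37, 34 and 38 to 71, 92 and 88 raw counts (log2 fold change 1.33 ± 0.22 SE, adjusted p = 0.00168). NRP1, a co-receptor that can carry a sugar chain, fell by 1.08 on the log2 scale, from 2671, 2928 and 3050 to 1143, 1223 and 1370 raw counts (adjusted p = 1.66e-06). OMD, a small leucine-rich proteoglycan, had 17, 23 and 18 raw counts in A375neg and 0, 2 and 1 in A375RIPK4.KO (adjusted p = 0.00195). With each A375RIPK4.KO library set to a limit of 3 counts, OMD was 5.84-fold lower, which leaves out the error of the A375neg mean. The others, PTPRZ1 (higher) and LUM (lower), are named outside the rule for named genes. LUM had an adjusted p of 0.0498 and was called in 2 of the 13 alternative fits, not called in 10, with DESeq2 among them (adjusted p = 0.111), and too low to be tested in 1. The agrin gene AGRN, a heparan sulfate proteoglycan of basement membranes like HSPG2, was not called (log2 fold change −0.11, 95% interval −0.33 to 0.10).

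The share called was 20% of the 5 tested heparan sulfate polymerase genes and 16.7% of the 12 modifying enzymes. It was 23.1% of the 13 chondroitin and dermatan sulfate enzymes, beside 9.22% of all genes. None of the 7 linker enzymes and none of the 12 tested breakdown enzymes was called, although the adjusted p alone was under 0.05 for 3 and 2 of them. Of the 5 heparan sulfate polymerase genes, EXTL1 fell by 1.96 on the log2 scale, from 269, 317 and 254 to 62, 78 and 56 raw counts (adjusted p = 1.91e-05). EXT1 and EXT2, which together elongate heparan sulfate, had log2 fold changes of −0.19 (adjusted p = 0.0543) and 0.00 (adjusted p = 0.98) and were not called. Among 12 heparan sulfate modifying enzymes 1 rose and 1 fell. The 6-O-sulfotransferase gene HS6ST3 had 27, 21 and 26 raw counts in A375neg and 0, 1 and 0 in A375RIPK4.KO (adjusted p = 0.000345). With each A375RIPK4.KO library set to 3 counts, HS6ST3 was 7.51-fold lower, again without the error of the A375neg mean. HS3ST1, a 3-O-sulfotransferase, rose from 92 to 109 raw counts in A375neg to 148 to 159 in A375RIPK4.KO (log2 fold change 0.75, adjusted p = 0.00695).

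Of 13 chondroitin and dermatan sulfate enzymes, 2 rose and 1 fell. CSGALNACT1, which starts chondroitin chains, fell from 85, 97 and 132 to 30, 37 and 24 raw counts (log2 fold change −1.64, adjusted p = 0.00121). CHST7, a chondroitin 6-O-sulfotransferase, and CHSY3, a chondroitin synthase, were called higher with log2 fold changes of 0.61 and 0.98 (adjusted p = 0.0135 and 0.0401). Both calls were lost without A375neg replicate 2 or without A375RIPK4.KO replicate 3, CHST7 also without A375neg replicate 1, and CHSY3 also without A375neg replicate 3 or A375RIPK4.KO replicate 2. With these libraries left out in turn, the adjusted p of the lost calls was 0.0574 to 0.139. CHST7 also dropped under 1.5-fold with the length correction (log2 fold change 0.58), and CHSY3 was not called with the replicate number as a block (adjusted p = 0.0521).

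Of the 9 genes that supply sulfate and nucleotide sugars, 2 were called lower and none higher (median log2 fold change −0.27), a share of 22.2% beside 9.22% of all genes. SLC26A2, a sulfate transporter, went from 11905, 11741 and 14616 to 5257, 4983 and 5393 raw counts (log2 fold change −1.16 ± 0.09 SE, adjusted p = 6.7e-06). PAPSS2, which makes the activated sulfate donor, went from 1523, 1578 and 1633 to 666, 702 and 687 (log2 fold change −1.07 ± 0.07 SE, adjusted p = 1.97e-06). PAPSS2 and SLC26A2 did not overlap between the groups, nor did several uncalled genes of this list, beside 36.5% of all genes tested.

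Of 9 tested genes for core protein cleavage, MMP14, MMP2 and MMP9 were called lower and none higher, a share of 33.3% beside 9.22% of all genes. By the adjusted p alone 1 gene of this list was higher. MMP14, a membrane metalloprotease that can shed syndecan-1, had 4902, 5164 and 5669 raw counts in A375neg and 833, 1079 and 1002 in A375RIPK4.KO (log2 fold change −2.30 ± 0.09 SE, adjusted p = 3.26e-08). MMP2 and MMP9 had log2 fold changes of −1.34 and −1.66 (adjusted p = 1.26e-06 and 9.18e-05). The sheddase genes ADAM10 and ADAM17 were tested and not called. None of the 7 tested partners of syndecan tails was called.

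Among 10 tested matrix partners, HAPLN1 and DAG1 fell and FBLN1 rose, a share of 30% beside 9.22% of all genes. HAPLN1, the link protein that fixes versican to hyaluronan, had 630, 685 and 726 raw counts in A375neg and 126, 158 and 149 in A375RIPK4.KO (log2 fold change −2.10 ± 0.11 SE, adjusted p = 2.97e-07). DAG1, a dystroglycan gene whose product binds perlecan, had a log2 fold change of −0.70 (adjusted p = 8.41e-05), and FBLN1, a fibulin of the matrix, one of 1.46 (adjusted p = 0.00249). As for HSPG2, the lowest A375RIPK4.KO count of FN1 (fibronectin), named outside the rule, was that of replicate 2. Unlike that of HSPG2, it lay within the A375neg range. FN1 had 13707, 14614 and 16477 raw counts in A375neg and 21701, 14167 and 25042 in A375RIPK4.KO. Its adjusted p was 0.124 with all libraries and 1.06e-07 without A375RIPK4.KO replicate 2, where its log2 fold change was 0.79. With all 6 libraries and the length correction it was called as well (log2 fold change 0.60, adjusted p = 0.0232), and in the remaining 11 alternative fits it was not.

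**Figure D5:**
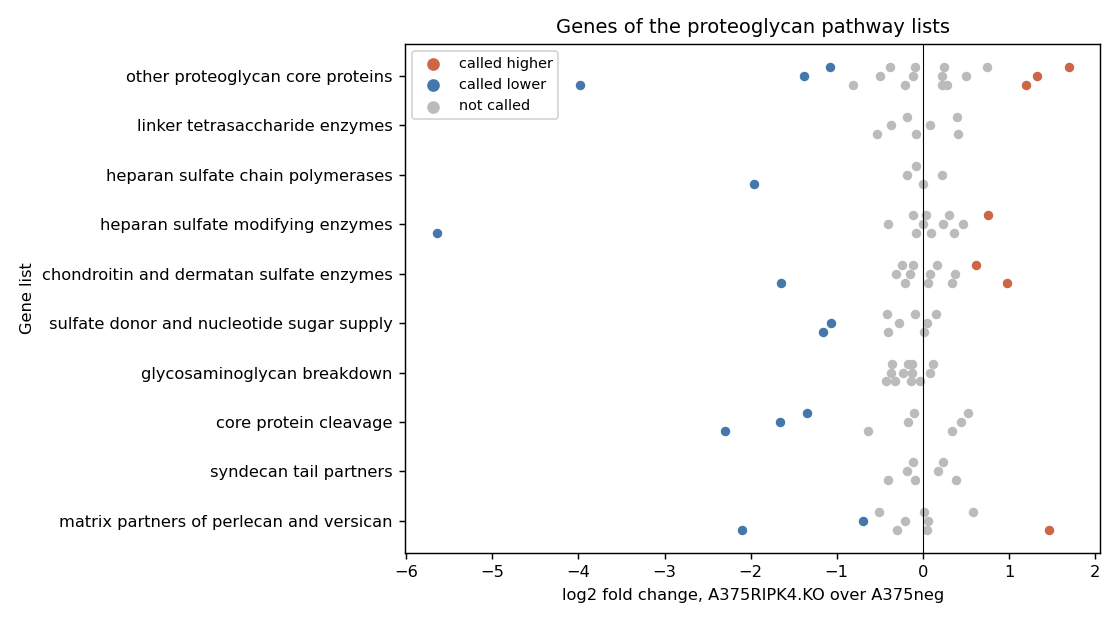
Log2 fold change in A375RIPK4.KO over A375neg of every tested gene in the 10 lists, 1 row per list, with called genes in colour. The fitted values of HS6ST3 and OMD, at −5.65 and −3.98, rest on at most 2 counts per A375RIPK4.KO library and are no measure of size. The sulfate supply, cleavage and heparan sulfate polymerase lists hold calls on the lower side only, with 1 call in the last.

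SDC4 had the smallest adjusted p of the 10 members. The tested genes whose log2 CPM followed it most closely over the 6 libraries were ITPRIP, MCAM and NRP1, with Pearson's r of 0.9987, 0.9986 and 0.9981. As the 6 points fall into 2 separate groups, these values mainly say that the genes were lower in the same libraries. MCAM, the melanoma cell adhesion molecule, had 4816, 5307 and 5205 raw counts in A375neg and 3361, 3592 and 3863 in A375RIPK4.KO (log2 fold change −0.37, adjusted p = 0.00114).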

How the data were processed

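Poly(A)-enriched, strand-specific libraries from 3 A375neg and 3 A375RIPK4.KO samples were sequenced, mapped and counted by the authors' sequencing provider. The authors deposited raw counts per gene as whole numbers, without normalization, at 21882863 to 26694140 counts per library. The submitters' processing notes name cutadapt, FastQC, HISAT2, HTSeq, DESeq2 and the build GRCh38.p13, and whether counting used the strand is not given in the sources used here. Among the listed genes whose symbol matched GENCODE 29 (78.1%), no other gene overlapped a member there. For the remaining genes overlap could not be looked up. The table also holds normalized counts and the authors' own fold changes and p-values, which were not used.

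Groups were tested with edgeR 4.0.16 under R 4.3.3 (TMM scaling, filterByExpr, robust quasi-likelihood test, Benjamini-Hochberg adjustment over 14443 genes). For display, counts were scaled by TMM effective library size, set to the average library. Standard errors are the log2 fold change divided by the square root of F, and intervals are 95%. Shares and sums were compared by exact permutation tests in scipy 1.17.1. The table gives 1 exon per gene, so exonic lengths were taken from GENCODE 29 instead (89.4% of genes tested had one). Gene positions and promoter windows are from RefSeq (GRCh38.p14), and windows of 9 of 10 members, all but SDC2, matched by symbol. A table exon of each member overlapped its RefSeq gene, so both were taken to be on one build.

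Alternatives were DESeq2 1.42.0, its size factors in edgeR, no filter, a filter at a mean count of 50, blocking on the replicate number, a gene length correction, block and correction together, omission of single libraries, and other thresholds. The steps were tested on simulated counts. Named genes were all members, RIPK4, up to 4 called genes per list by smallest adjusted p, and the 3 genes with the highest Pearson's r (log2 CPM, prior count 2) to the member of smallest adjusted p, and marker genes where a value checks the labels. AGRN, EXT1, EXT2, ADAM10, ADAM17, PTPRZ1, LUM and FN1 are named outside this rule, after their values had been seen. Members and lists were chosen with earlier results of these data known, and the motifs after the member values had been seen. Figures were drawn with matplotlib 3.10.9.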

Additional observations from a re-analysis of the deposited data

How the results depend on the processing

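Over 13 alternative fits of the 10 members, the direction and the side of each limit held in 128 of 130 cases, and the same 4 genes (SDC2, SDC4, GPC4 and VCAN) were called in every fit. Both exceptions were HSPG2, whose log2 fold change turned to −0.0098 without A375RIPK4.KO replicate 1, and whose adjusted p fell under 0.05 without A375RIPK4.KO replicate 2 (log2 fold change 0.34, adjusted p = 0.00115). DESeq2's size factors moved the median of all genes by 0.003 on the log2 scale. With a log2 fold change above 1.5 required, 1 member was called, higher, and 0 lower. By the adjusted p alone 2 were lower. The number of called genes in the pathway lists was 17 to 21, beside 20 in the report, and the heparan sulfate modifying and chondroitin lists went down to 1 and the linker list up to 1 in single alternatives.

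With raw counts in place of counts per length, the difference in family share was 10.4 percentage points for SDC1 and 7.85 for SDC2. With RefSeq transcript lengths it was 9.75 for SDC1, 2.17 for SDC3 and −4.92 for GPC6. These follow from the lengths used.

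Libraries with the same replicate number did not deviate together (r of deviations −0.01 to 0.08). With the replicate number as a block, 4 members were called, as without it, with log2 fold changes of −0.86 for SDC4 and 1.97 for GPC4. The block left 18 of the 20 pathway calls in number, and not every library correlated best with its own number. At 3 libraries a group, exact tests cannot go below p = 0.1, and GPC4 and VCAN rest on 29 to 206 and 66 to 160 counts.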
